A study of Mus musculus with 4 samples.

Results

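The 9 genes described here encode transcription factors of the myeloid lineage, namely Spi1, Cebpa, Cebpb, Cebpd, Cebpe, Maf, Klf4, Gfi1 and Id1. They were taken by symbol from a table of 35798 genes, and all 9 were among the 13822 genes that passed the filter on low counts. They were chosen by their counts scaled to library size (CPM) in the wild-type and TNFR2 KO libraries, so the difference between these groups is given for the 9 genes as a description, without a test.

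The libraries were bulk RNA-seq of Ly49H+ natural killer (NK) cells sorted from mouse spleen. Ly49H is the activating NK receptor that recognises a glycoprotein of murine cytomegalovirus (MCMV). Donor cells were CD45.1 (wild-type) or CD45.2 (TNFR2 KO), the latter lacking the tumour necrosis factor receptor encoded by Tnfrsf1b. Both were given together to NSG mice, which then received MCMV. At D3.5 after infection the spleens of 3 hosts were pooled, and each pool gave 1 wild-type and 1 TNFR2 KO library, so that each genotype had 2 libraries. NSG hosts lack T, B and NK cells of their own but keep myeloid cells. All 4 libraries shared the host, the transfer and the infection, and there was no uninfected group. Genotype, CD45 allele and sort gate went together in every library and cannot be told apart. In bulk RNA, fewer cells of a type and less RNA per cell cannot be told apart either. With 1 experiment of 2 pools, p-values measure only the spread between these libraries, which may be technical.

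PU.1, encoded by Spi1, is an ETS factor needed to form macrophages, granulocytes and B cells, and it acts with the C/EBP factors, basic leucine zipper proteins that bind DNA as dimers. C/EBPα directs progenitors to the granulocyte and monocyte fate, C/EBPε completes granulocyte maturation, and C/EBPβ and C/EBPδ rise in inflammation. c-Maf and KLF4 act in macrophages and monocytes, GFI1 is a repressor used by granulocyte precursors and by lymphocytes, and ID1 is a helix-loop-helix protein without a DNA-binding region that blocks E proteins.

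The windows of 250 bases before the RefSeq gene start (GRCm38.p6) are shown for 3 of the 4 members that had one. These 3 genes had lower levels in TNFR2 KO. Their windows lie above the median of all windows in GC content and CpG count, but so do those of Gfi1, which are not shown. The Gfi1 windows had 57.6% and 59.2% GC and 9 and 13 CpG pairs, so this trait does not set the 3 genes apart. Capitals mark the letters TATAAA. The window of Cebpa lies at chr7:35119043-35119292 on the plus strand, that of Cebpb at chr2:167688665-167688914 on the plus strand and that of Klf4 at chr4:55532476-55532725 on the minus strand.
Cebpa: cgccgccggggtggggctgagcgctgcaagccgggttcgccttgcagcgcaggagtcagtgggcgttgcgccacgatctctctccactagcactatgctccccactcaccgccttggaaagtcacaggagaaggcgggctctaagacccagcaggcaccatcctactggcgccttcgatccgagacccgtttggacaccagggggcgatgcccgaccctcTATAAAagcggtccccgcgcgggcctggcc
Cebpb: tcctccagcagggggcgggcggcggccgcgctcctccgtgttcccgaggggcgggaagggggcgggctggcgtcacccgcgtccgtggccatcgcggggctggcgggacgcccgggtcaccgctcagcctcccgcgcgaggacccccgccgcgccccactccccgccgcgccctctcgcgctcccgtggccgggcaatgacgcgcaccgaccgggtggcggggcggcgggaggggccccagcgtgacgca
Klf4: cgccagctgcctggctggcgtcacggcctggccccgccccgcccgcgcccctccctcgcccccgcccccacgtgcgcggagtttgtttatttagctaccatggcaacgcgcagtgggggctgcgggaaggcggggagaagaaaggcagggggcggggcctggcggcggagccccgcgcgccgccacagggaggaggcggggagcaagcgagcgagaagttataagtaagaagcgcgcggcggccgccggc
The GC content was 66.4% for Cebpa, 81.6% for Cebpb and 74.0% for Klf4, against a median of 52.4% over 32851 windows. They held 22, 41 and 32 CpG pairs, against a median of 6. The letters TATAAA stood 30 bases before the start of Cebpa and were found in 12.4% of all windows, both strands searched. The PU.1 letters GAGGAAGT were in none of the 4 members' windows and in 2.44% of all windows. An NF-kB motif was likewise in none of the 4 and in 1.41% of all. The C/EBP letters TTGCNNAA were in 1 of the 4, that of Gfi1, and in 9.56% of all. A match of letters is a description and shows no binding.

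The libraries held 32713256 to 39543650 estimated counts. Tnfrsf1b was at 264.7 and 268.6 CPM in wild-type and at 55.1 and 58.6 CPM in TNFR2 KO. Its log2-fold change was -2.23 (SE 0.0352, edgeR quasi-likelihood test, Benjamini-Hochberg adjusted p = 1.35e-13), so reads of the targeted gene remained in both KO libraries. The sort label was checked against 21 tested NK cell markers, which were present in every library and summed to 17562 and 17446 CPM in wild-type and to 31939 and 31650 CPM in TNFR2 KO. At an edgeR adjusted p under 0.05, all 21 were higher in TNFR2 KO, as were 24.2% of all genes tested (50.4% in either direction), and 5 of the 21 also exceeded a log2-fold change of 1, as did 1.56% of all genes. In what follows, a gene other than the 9 factors is called where it passes both thresholds, as 13.3% of all genes did, 11.8% lower. Markers of other cell types were present too. Macrophage or monocyte markers were called lower in 18 of 19 tested, with sums of 2432 and 2412 CPM against 979 and 957 CPM. The exception was Ccr2, a chemokine receptor of monocytes, at 404 and 384 CPM against 687 and 670 CPM, and without it the KO sum was 14.3% of wild-type. Clec4f, the Kupffer cell lectin, was at 0 in all libraries. Granulocyte markers were called lower in 15 of 15, with sums of 1043 and 1059 CPM against 110 and 105 CPM. Mast cell or basophil markers were called lower in 8 of 9 and higher in 1, with sums of 1278 and 1274 CPM against 102 and 103 CPM. The gene called higher, Cma1, was at 21.9 and 23.1 CPM against 71.9 and 73.3 CPM and made up most of the KO sums. Tpsab1, a tryptase of mast cells, had 5 counts in wild-type replicate 2 and 0 in the other libraries. Class II and dendritic cell markers were called lower in 5 of 9, with sums of 1716 and 1753 CPM against 150 and 149 CPM. Nearly all of this was the class II group of Cd74, H2-Aa, H2-Ab1 and H2-Eb1, with Cd74 at 907 and 926 CPM against 78.4 and 75.3 CPM. The other genes tested were low, and of them Clec9a was called lower while Zbtb46, Flt3, Siglech and Xcr1 were not called. B cell markers summed in TNFR2 KO, at 50.6 and 48.1 CPM, to 121% of wild-type. Most of that sum was Ighm, at 36.8 and 37.9 CPM against 48.1 and 45.6 CPM. Stromal or endothelial markers, of which 3 of 6 tested were called lower, summed to 111 and 116 CPM against 137 and 135 CPM. Most of this was Pecam1 alone, at 105 and 110 CPM against 134 and 134 CPM. None of the 9 factors is in these marker lists. The part of these cells in the values that follow was not tested.

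Of the 9 factors, 8 had both TNFR2 KO libraries below both wild-type libraries, and 7 of 9 had a log2-fold change below -1. Over all genes tested, 37.7% had both KO libraries lower and 12.8% had a log2-fold change below -1. The median log2-fold change of the 9 was -1.75, against -0.003 over all genes. Summed, the 9 factors came to 387.3 and 392.2 CPM in wild-type and to 193.5 and 194.2 CPM in TNFR2 KO.

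**Figure D1:**
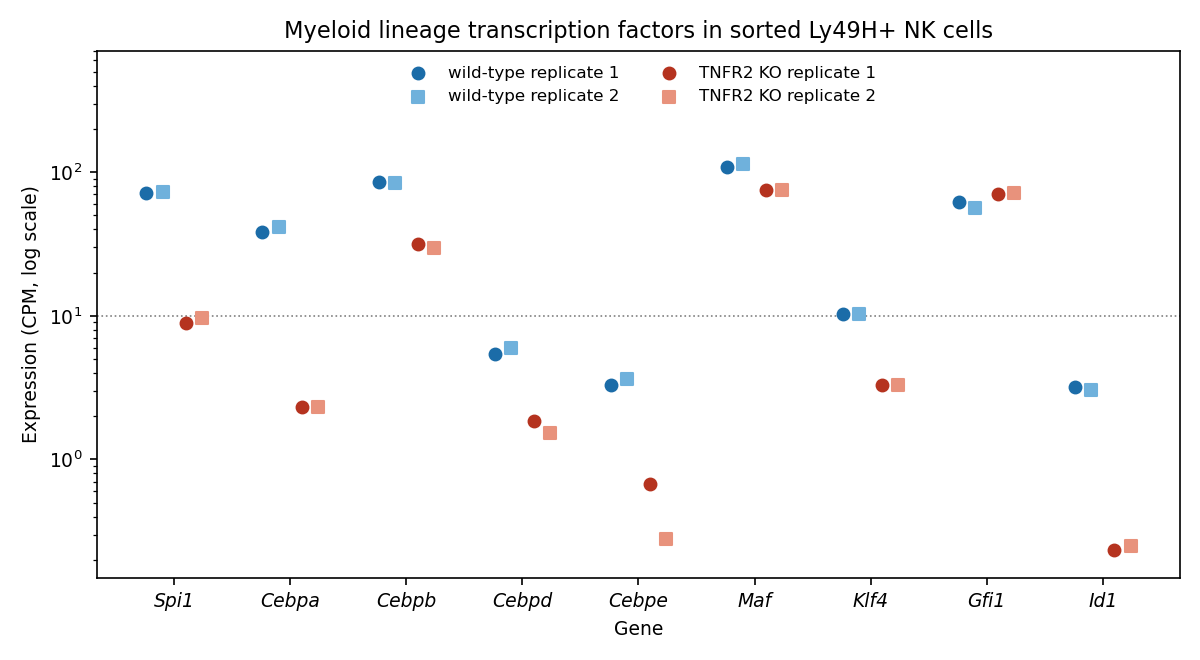
CPM of each of the 9 factors on a log axis, with 1 point for each library of wild-type and TNFR2 KO cells and a dotted line at 10 CPM. Cebpa lies near 40 CPM in wild-type and near 2.3 CPM in TNFR2 KO, Maf moves least among those that are lower, and Gfi1 alone lies higher in TNFR2 KO (its log2-fold change is -0.24 when libraries are scaled on NK genes).

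Spi1 (GRCm38, as for all gene positions here, chr2:91082390-91115756, plus strand) was at 71.7 and 73.0 CPM in wild-type and at 8.94 and 9.58 CPM in TNFR2 KO. The groups were far apart, with each pair of replicates close together. The mean went from 72.4 ± 0.940 CPM to 9.26 ± 0.451 CPM (SD, n = 2), which is 12.8% of wild-type and a log2-fold change of -2.97 (SE 0.058). The log2-fold changes within the pools differed by 0.07. None of its 31-base stretches occurs in another gene.

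Cebpa (chr7:35119293-35121928, plus strand, a single exon) had the most negative log2-fold change of the 9. It was at 38.1 and 41.8 CPM in wild-type and at 2.30 and 2.31 CPM in TNFR2 KO. Counts went from 1445 and 1540 to 89 and 74. The KO level was 5.77% of wild-type and the log2-fold change was -4.11 (SE 0.093). Only 0.752% of all genes tested had a lower one.

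Cebpb (chr2:167688915-167690418, plus strand, a single exon) kept more of its level. It was at 84.8 and 84.2 CPM in wild-type and at 31.7 and 29.8 CPM in TNFR2 KO, or 36.4% of wild-type, with a log2-fold change of -1.46 (SE 0.046). Cebpd (chr16:15887286-15891031, plus strand, a single exon) was low in all libraries, at 5.46 and 5.99 CPM in wild-type and 1.86 and 1.53 CPM in TNFR2 KO. Its log2-fold change was -1.75 (SE 0.181), and the groups did not overlap. Of the 31-base stretches of these genes, 19.6% for Cebpb and 14.2% for Cebpd also occur in other genes. The share was 5.38% for Maf, spread over 3019 genes, 2.0% for Klf4, 1.65% for Gfi1 and 0.835% for Cebpa. Exons of Cebpb overlap those of Tmem189 on the opposite strand by 312 bases, and exons of Cebpd overlap those of Spidr by 562 bases. Exons of Cebpa, Maf and Gfi1 overlap opposite-strand genes by 51, 440 and 101 bases. The libraries were stranded, but the sources used here do not give the strand setting of the counting, so reads of these pairs may not be told apart.

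Cebpe (chr14:54710360-54712174, minus strand) rested on few counts. It had 125 and 133 counts in the wild-type libraries against 26 and 9 in the TNFR2 KO libraries, whose exact Poisson 95% intervals are 17.0 to 38.1 and 4.12 to 17.1 and cover counting error only. Levels were 3.30 and 3.61 CPM against 0.672 and 0.281 CPM, so the KO libraries differed from each other by more than those of any other factor relative to their level. The log2-fold change of -2.81 (SE 0.324) was -2.29 in the first pool and -3.68 in the second. Without TNFR2 KO replicate 1 it was -3.59, and without TNFR2 KO replicate 2 it was -2.35.

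Levels can be compared between genes only per length of exon. The length used was the union of the exons of all annotated transcripts, not that of the transcripts counted. The order of genes and the size of ratios between genes depend on this choice. Per kilobase, Cebpa, Cebpb, Cebpd and Cebpe, without their relative Cebpg, summed to 74.9 and 76.4 CPM in wild-type and to 23.0 and 21.4 CPM in TNFR2 KO. Cebpa made up 19.3% and 20.8% of that sum in wild-type and 3.80% and 4.10% in TNFR2 KO. Cebpb went the other way as a share, from 75.2% and 73.3% to 91.7% and 92.9%. The ratio of Cebpb to Cebpa was 3.90 and 3.53 in wild-type and 24.1 and 22.6 in TNFR2 KO. Ratios within a library do not depend on how libraries were scaled.

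**Figure D2:**
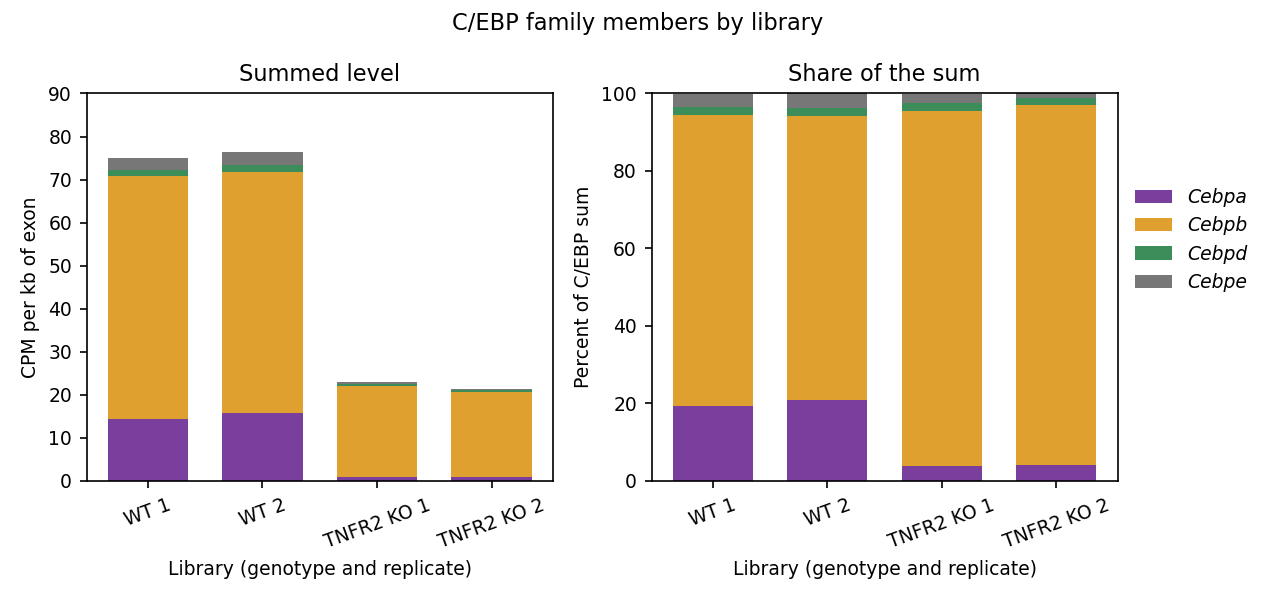
Stacked bars for each of the 4 libraries show the summed level of Cebpa, Cebpb, Cebpd and Cebpe, without Cebpg, in CPM per kilobase of exon (left) and the percent of that sum taken by each gene (right). The sum is 74.9 and 76.4 in wild-type and 23.0 and 21.4 in TNFR2 KO, and the share of Cebpa is 19.3% and 20.8% against 3.80% and 4.10%.

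Maf (chr8:115682942-115707794, minus strand) encodes the basic leucine zipper factor c-Maf. It was at 108.4 and 113.5 CPM in wild-type and at 74.6 and 75.0 CPM in TNFR2 KO, or 67.4% of wild-type. The groups did not overlap, but the log2-fold change of -0.57 (SE 0.037) was the smallest among the factors that were lower. Klf4 (chr4:55527143-55532466, minus strand), a zinc finger factor of monocytes, was at 10.3 CPM in both wild-type libraries and at 3.28 CPM in both TNFR2 KO libraries. Its log2-fold change was -1.65 (SE 0.129). Per kilobase, the ratio of Maf to Klf4 was 3.88 and 4.09 in wild-type and 8.40 and 8.47 in TNFR2 KO.

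Gfi1 (chr5:107716657-107726036, minus strand) was the exception in direction. It was at 62.0 and 56.7 CPM in wild-type and at 69.9 and 72.1 CPM in TNFR2 KO. The log2-fold change was 0.26 (SE 0.048), and -0.24 when libraries were scaled on 41 NK genes, which moved the median of all genes to -0.50. These 41 genes are the NK cell markers above and the NK lineage factors below. The ratio of Spi1 to Gfi1 per kilobase, free of scaling, was 1.37 and 1.52 in wild-type and 0.151 and 0.157 in TNFR2 KO. Id1 (chr2:152736251-152737410, plus strand) was at 3.19 and 3.04 CPM in wild-type and at 0.233 and 0.250 CPM in TNFR2 KO. The latter are 9 and 8 counts, with exact Poisson 95% intervals of 4.12 to 17.1 and 3.45 to 15.8. Its log2-fold change was -3.68 (SE 0.307).

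Ordered by mean CPM per kilobase, wild-type levels ran from Cebpb (56.2 ± 0.257, SD, n = 2) through Spi1 (26.9 ± 0.349), Gfi1 (18.6 ± 1.18), Cebpa (15.15 ± 0.985), Maf (13.5 ± 0.442), Klf4, Cebpe (2.78 ± 0.178) and Id1 (2.68 ± 0.0929) to Cebpd (1.53 ± 0.101). Cebpe and Id1 overlapped between libraries. In TNFR2 KO the order began with Gfi1 (22.3 ± 0.489), Cebpb (20.4 ± 0.860), Maf (9.08 ± 0.0363) and Spi1 (3.44 ± 0.167). Klf4, Cebpa, Cebpd, Cebpe and Id1 followed, and Cebpd and Cebpe overlapped.

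The Euclidean distance was taken over the 4 libraries on centred log2 CPM, with 0.5 CPM added to each value. By this distance, the genes nearest to Spi1 were Tnfaip2 (distance 0.0232), App (0.0429) and Tns3 (0.0453). Nearest to Cebpb were Ffar2 (0.0403), Arnt2 (0.0438) and Cnksr3 (0.0653). The added 0.5 CPM shrinks differences at low levels. Arnt2 and Cnksr3, both low, had log2-fold changes of -1.76 and -1.72, against -1.46 for Cebpb. With 4 points this is a description of likeness only.

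Relatives of the 9 factors were compared next. Of 26 relatives tested, 5 were called, each lower (19.2%, against 13.3% of all genes), and their median was 0.06 on the log2 scale. Spic, the PU.1 relative of red pulp macrophages, went from 46.7 and 42.5 CPM to 5.69 and 5.84 CPM (-2.95, edgeR adjusted p = 9.76e-12). Gfi1b, a repressor of erythroid and megakaryocyte cells, was called at -1.58. Klf5 (-3.27) and Klf1 (-1.18) were also called and are named after their values were seen. Klf1 had -0.95 without wild-type replicate 1 and was then not called. Cebpg, a C/EBP gene of most tissues, was at 50.8 and 51.7 CPM against 54.0 and 54.0 CPM (edgeR adjusted p = 0.177), and its log2-fold change of 0.07 was -0.43 when scaled on NK genes. Id2, which NK cells need, had a log2-fold change of 0.47 and Klf2, a quiescence factor of lymphocytes, one of 0.44, but these were -0.03 and -0.06 when scaled on NK genes. Id2 is itself among the scaling genes, so its value near 0 is partly set by that scaling. Ddit3 (0.30) and Id3 (0.43) were not called and were at -0.20 and -0.07 under that scaling. Spib (-0.72) was not called, but was called under that scaling (-1.21, edgeR adjusted p = 0.0332).

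**Figure D3:**
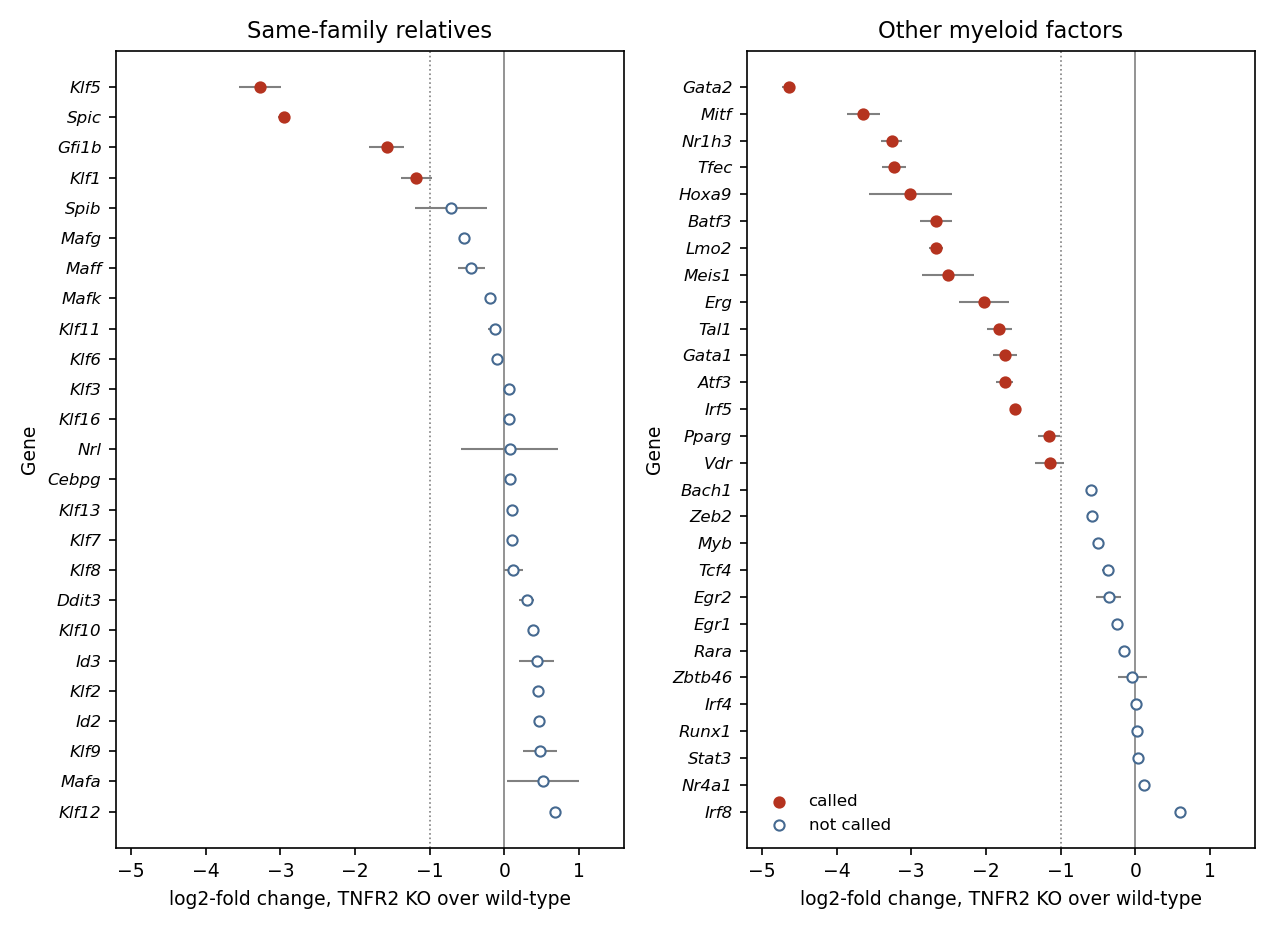
Log2-fold change (TNFR2 KO against wild-type) of 25 of the 26 tested relatives of the 9 factors and of each other myeloid factor, with bars of 1 SE, filled points for genes called by edgeR and a dotted line at -1. The filled points are 4 of the 25 relatives shown and 15 of 28 other factors, all at negative values, and Irf8 (0.60) lies farthest to the right among the other factors.

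Of 28 other factors of myeloid fate, 15 were called, each lower (53.6%, against 13.3% of all genes), and the median was -1.15 on the log2 scale. Of these 28 genes, 3, among them Gata2, are also in the marker lists, and 1 is also an NK lineage factor. Gata2, a factor of stem and mast cells, went from 69.2 and 68.5 CPM to 3.08 and 2.37 CPM (-4.64, edgeR adjusted p = 4.07e-13). Mitf, of mast cells and osteoclasts, had -3.64 and Nr1h3, the macrophage sterol receptor LXRα, had -3.26. Irf8, a partner of PU.1 that NK cells also express, was at 386 and 397 CPM in wild-type and 589 and 596 CPM in TNFR2 KO. The difference of 0.60 on the log2 scale was below the fold threshold (edgeR adjusted p = 1.08e-09). It is close in size to the shift of the median of all genes, to -0.50, when scaled on NK genes. Stat3 and Runx1 were both at 0.03, at -0.47 and -0.48 when scaled on NK genes, and at -0.03 and -0.03 with library size alone. With the filter of 10 CPM on average both were also below 0.

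Textbook targets of the factors were called in 25 of 28 cases, each lower (89.3%), and the median was -2.78 on the log2 scale. Of these 28 genes, 18 are also in the marker lists above. Among PU.1 targets 6 of 8 were called. Csf1r, the receptor of macrophage colony-stimulating factor, went from 254 and 255 CPM to 27.4 and 26.7 CPM (-3.24, edgeR adjusted p = 6.39e-15). Itgam, the integrin CD11b, which mature NK cells carry, was at 368 and 370 CPM against 707 and 706 CPM (0.94) and was not called. All 14 C/EBP targets were called. Mpo, myeloperoxidase of granule-forming precursors, had -6.50, and Elane, neutrophil elastase, went from 1994 and 1999 counts to 4 and 13. Lyz2, lysozyme of macrophages and granulocytes, had -2.79. Among c-Maf or KLF4 targets 5 of 6 were called, including C1qa (-2.79) and the scavenger receptor Cd163 (-3.08). Il10, the cytokine interleukin 10, was at 33.0 and 32.2 CPM against 47.3 and 45.2 CPM (0.51) and was not called. Scaling on NK genes moved the median of all genes to -0.50, a shift about as large as this difference.

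**Figure D4:**
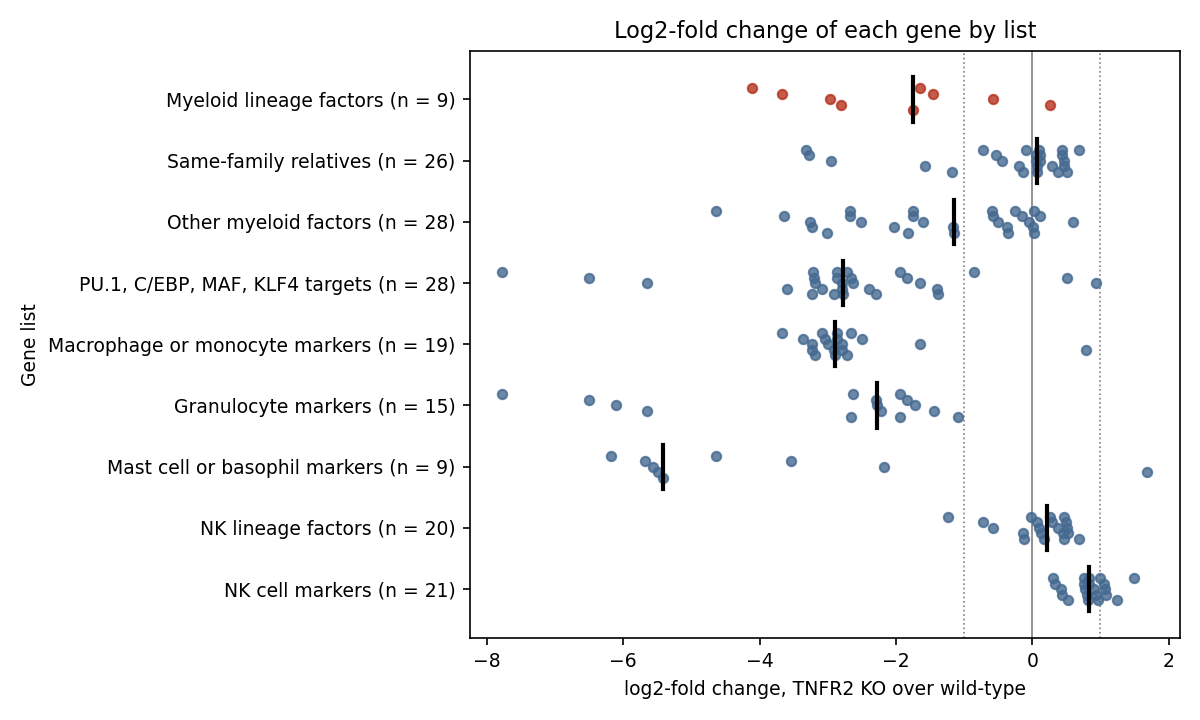
Log2-fold change (TNFR2 KO against wild-type) of each tested gene in 9 lists, 1 point a gene, with a black bar at the median of each list and dotted lines at -1 and 1. Medians are -1.75 for the 9 factors, 0.06 for relatives, -1.15 for other myeloid factors, -2.78 for targets and 0.22 for NK lineage factors, and Gfi1 is the rightmost of the 9 factors (0.26, but -0.24 when scaled on NK genes).

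Of 20 NK lineage factors, 1 was called (5%), and their median log2-fold change was 0.22. Ikzf2, the Helios zinc finger factor, was the one called, at 14.9 CPM in both wild-type libraries and 6.70 and 5.87 CPM in TNFR2 KO (-1.24, edgeR adjusted p = 1.06e-06). Ets1, an ETS factor needed for NK cells, was at 785 and 777 CPM against 953 and 958 CPM (0.29, and -0.21 when scaled on NK genes). All 20 factors are among the genes used for that scaling, so their values under it are partly set by it.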

How the data were processed

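Ly49H+ NK cells were sequenced in 4 libraries (2 wild-type, 2 TNFR2 KO). The authors trimmed reads with Trimmomatic (version 1.4), quantified them with kallisto (version 0.46.1) against mm10 and summed transcripts to genes with tximport; the deposited values are estimated counts per gene, and the sources used here do not give the transcript annotation. The 9 members, the gene lists and the tests were chosen with earlier results of these data known. Estimated counts were rounded, 1 row without a gene name (0.0559% to 0.0728% of counts) was left out, and edgeR (4.0.16, R 4.3.3) was run with filterByExpr, TMM scaling and the quasi-likelihood test without a block, with Benjamini-Hochberg adjustment over 13822 genes. CPM are TMM-scaled. By rule the text could name all members, Tnfrsf1b, 9 close relatives, the 3 genes nearest to Spi1 and to Cebpb, and of each other list the 3 highest by CPM and the 3 called genes of largest change. Klf1, Klf5, Clec4f, Tpsab1, Cma1, Clec9a, Zbtb46, Flt3, Siglech and Xcr1 are named outside this rule.

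Same-numbered libraries came from the same pooled spleens per the labels, which sets the pairing, and their deviations from the group means correlated at 0.0487. Replicates differed by more than counting noise (mean chi-square per gene of 3.27 and 3.47, where 1 is counting noise). An exact permutation test of 2 against 2 libraries cannot give a two-sided p under 0.333. On simulated counts edgeR recovered 99% of 200 changed genes. The planted changes were well above the fold threshold and all genes were given the same spread, so this says little about real genes near the threshold. Positions and exon lengths are from GENCODE M21 (GRCm38) and promoters from RefSeq (GRCm38.p6), which held 4 of the 9 members. DESeq2 (1.42.0), other scalings, other filters, the replicate block and leaving out each library were the 12 alternatives. The values of 1 relative are not reported here.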

Additional observations from a re-analysis of the deposited data

How the results depend on the processing

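Under 12 alternative settings, 8 of the 9 factors kept their direction. Gfi1 did not, with a log2-fold change of -0.24 when libraries were scaled on 41 NK genes. The NK lineage factors are among those genes, so their calls under that scaling are partly set by it. That scaling gave 2531 genes called lower and 64 higher (97.5% of calls lower, against 88.3%), 3 NK lineage factors called, each lower, and a median of -2.25 over the 9 factors. With only genes of at least 10 CPM on average (8763 genes), 478 genes were called, 420 lower and 58 higher, with 2 relatives and 5 other myeloid factors, each lower. That filter tests fewer genes and drops Cebpd, Cebpe, Klf4 and Id1, so the median of the remaining 5 factors was -1.49 and 3 were below -1. With the replicate block, used because same-numbered libraries share a pool, 1830 genes were called against 1842 without it, and the median of the 9 factors was -1.75. DESeq2 called 1603 genes. Low counts limit Cebpe and Id1.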

Other observations

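Markers of erythroid and platelet-forming cells were also measured. Of 10 erythroid markers tested, 9 were called lower in TNFR2 KO (edgeR, against 11.8% of all genes), with sums of 287 and 282 CPM in wild-type and 58.9 and 62.8 CPM in TNFR2 KO. Hba-a1, an alpha globin gene whose reads may be split with its near-identical copy Hba-a2, was at 124.7 and 131.0 CPM against 24.7 and 24.1 CPM, a log2-fold change of -2.39. Alas2, the erythroid enzyme that starts haem synthesis, had -2.80. Of 6 megakaryocyte markers, 5 were called lower, including Itga2b, the platelet integrin CD41, which went from 34.1 and 31.8 CPM to 2.30 and 2.03 CPM (-3.92). T cell markers summed to 1367 and 1354 CPM in wild-type and to 1265 and 1299 CPM in TNFR2 KO. At an adjusted p under 0.05 alone, the edgeR test placed 6 of 10 lower and 2 higher, against 26.2% and 24.2% of all genes. Each had an absolute log2-fold change under 1. Cd4 had -0.56.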
